A study of Mus musculus with 6 samples.

Results

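Cholesterol is built in the liver from acetyl-CoA, and its supply is set by the enzymes of that route, by the proteins that sense sterols in the endoplasmic reticulum, and by the proteins that carry, store or take up sterol. The genes described here are 31 members of these 3 roles, taken by symbol from the files: 19 synthesis enzymes, 4 control genes and 8 genes of carriage, esterification and uptake. All 31 were among the 22609 genes listed (Msmo1 under its older symbol Sc4mol), and 29 passed the filter on low counts that left 12522 genes for testing. Hmgcs1 and Npc1l1 did not pass it.

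When membrane sterol is low, SCAP escorts the transcription factor precursor SREBP-2, the product of Srebf2, from the endoplasmic reticulum to the Golgi, where it is cleaved, and its released part enters the nucleus and activates nearly every synthesis gene. INSIG-1 and INSIG-2 hold SCAP back when sterol is plentiful. In mouse liver this system also follows feeding and the daily clock, and Insig2 in particular is known as a target of the clock repressor REV-ERB alpha.

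Total RNA was sequenced as TruSeq libraries, 3 from liver labelled IGFBP7 knock-out (KO) and 3 from liver labelled wild type (WT), all from adult mice on a pure C57BL/6 background. Igfbp7, which encodes a secreted insulin-like growth factor binding protein studied in this series for its place in liver cancer, was deleted by Cre-loxP recombination. The labels leave out the promoter driving Cre and the animals' sex, exact age, feeding state and hour of collection. They also do not say that the 3 libraries of a genotype came from separate animals, so p-values measure the spread between these libraries. The libraries held 18912701 to 22419411 gene counts in KO and 16712568 to 21478524 in WT. Igfbp7 itself had 5, 2 and 9 counts in the KO libraries, against 1438, 1705 and 1055 in the WT libraries. Hepatocyte markers were abundant in every library, at a summed 98505 to 118463 CPM (counts scaled to library size with TMM factors) in KO and 85913 to 105888 in WT. Of 6 adrenal cortex markers, Cyp11a1, Cyp11b1 and Nr5a1 were at 0 counts in all 6 libraries. The other 3 had low counts: Star had 80, 62 and 95 in KO and 47, 53 and 54 in WT, Cyp21a1 had 11, 9 and 29 in KO and 10, 15 and 6 in WT, and Hsd3b1 had 22, 36 and 22 in KO and 23, 28 and 18 in WT. Star had all KO values above all WT values in CPM (edgeR adjusted p = 0.242) and was not called by edgeR or DESeq2. Of 6 intestinal markers, Sis was at 0 in every library, Lct and Muc2 had at most 2 counts and Vil1 at most 10. Fabp2 and Apoa4, which hepatocytes also express, were abundant, with 1375, 1331 and 1462 counts of Fabp2 in KO and 1341, 1389 and 989 in WT, and 7290, 8881 and 6239 counts of Apoa4 in KO and 6102, 5000 and 3577 in WT, and neither was called.

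WT library 1 stands apart from the other 5 in its clock genes, and this touches the sterol genes below. Arntl, the morning-phase partner of Clock, was at 2.75, 1.91 and 2.21 CPM in KO and at 17.6, 2.85 and 2.31 CPM in WT. Dbp, an evening-phase output of the clock, was at 63.5, 78.8 and 57.6 CPM in KO and at 10.2, 64.6 and 51.0 CPM in WT. A clock score was taken for each library by subtracting the average log2 CPM of 5 genes of the morning phase from the average of 9 of the evening phase. The score was 3.13, 3.84 and 3.55 in KO and -0.28, 2.42 and 2.93 in WT. Of the 9 evening genes edgeR called 0, with 6 higher before adjustment (p under 0.05, beside 8.1% of all tested genes) and 0 called by DESeq2. They were led by Ciart at 27.3 ± 2.91 CPM in KO and 5.40 ± 4.71 CPM in WT and Per3 at 65.7 ± 28.3 CPM in KO and 17.2 ± 11.02 CPM in WT (SD, n = 3 each). Of the 5 morning genes edgeR called 0, with 3 lower before adjustment (7.35% of all tested genes) and 2 called lower by DESeq2 (1.61% of all). They were led by Clock at 44.9 ± 5.75 CPM in KO and 68.6 ± 13.6 CPM in WT and by Npas2. The KO scores all lay above the WT scores, so hour of collection and genotype cannot be told apart by this score.

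Promoter sequences are shown for 5 members: Hmgcs1, Msmo1, Hsd17b7 and Insig1 as SREBP-2 targets, and Insig2, the member with the largest absolute log2 fold change. Each is from RefSeq (build GRCm38.p6), from 250 before to 50 after an annotated start, written 5′ to 3′ on the gene's strand. The coordinates are of that build and not of the counted files. Capitals mark a sterol regulatory element (TCACNCCAC on either strand) or a CCAAT box (CCAAT or its complement ATTGG), the site of NF-Y, a factor that works beside SREBP-2.
Hmgcs1, chr13:119690101-119690400, plus strand: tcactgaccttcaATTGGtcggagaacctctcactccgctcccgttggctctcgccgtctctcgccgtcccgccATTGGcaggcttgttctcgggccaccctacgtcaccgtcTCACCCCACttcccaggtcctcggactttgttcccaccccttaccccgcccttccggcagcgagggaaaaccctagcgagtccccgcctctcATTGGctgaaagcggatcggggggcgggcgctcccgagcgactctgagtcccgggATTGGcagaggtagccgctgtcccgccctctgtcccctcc
Msmo1, chr8:64733529-64733828, minus strand: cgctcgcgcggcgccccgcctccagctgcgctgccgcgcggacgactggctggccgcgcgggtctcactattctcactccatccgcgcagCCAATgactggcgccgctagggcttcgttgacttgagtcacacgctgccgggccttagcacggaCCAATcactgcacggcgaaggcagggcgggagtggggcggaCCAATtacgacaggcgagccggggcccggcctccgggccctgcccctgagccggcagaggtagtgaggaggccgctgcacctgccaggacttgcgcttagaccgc
Hsd17b7, chr1:169969156-169969455, minus strand: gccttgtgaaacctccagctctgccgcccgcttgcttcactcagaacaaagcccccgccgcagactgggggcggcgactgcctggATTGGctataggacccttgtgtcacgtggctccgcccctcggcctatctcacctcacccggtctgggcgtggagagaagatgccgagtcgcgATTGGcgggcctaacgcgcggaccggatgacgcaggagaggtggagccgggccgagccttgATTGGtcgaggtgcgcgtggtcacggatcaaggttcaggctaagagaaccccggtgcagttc
Insig1, chr5:28071162-28071461, plus strand: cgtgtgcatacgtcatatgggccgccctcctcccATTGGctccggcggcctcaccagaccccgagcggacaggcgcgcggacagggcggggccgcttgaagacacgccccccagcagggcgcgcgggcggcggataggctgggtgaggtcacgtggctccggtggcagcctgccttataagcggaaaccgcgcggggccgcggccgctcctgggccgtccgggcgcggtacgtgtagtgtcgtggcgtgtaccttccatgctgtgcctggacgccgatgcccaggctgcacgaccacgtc
Insig2, chr1:121332540-121332839, minus strand: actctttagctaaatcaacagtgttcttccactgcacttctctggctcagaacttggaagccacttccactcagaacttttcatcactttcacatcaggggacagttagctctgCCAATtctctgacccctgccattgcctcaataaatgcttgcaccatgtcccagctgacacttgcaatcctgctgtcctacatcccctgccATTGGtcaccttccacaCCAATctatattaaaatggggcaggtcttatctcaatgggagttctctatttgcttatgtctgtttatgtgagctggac

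RefSeq promoters were found for 24 of the 31 members, 30 windows in all counting alternative starts. CCAAT boxes were in 15 of the 19 windows of 16 synthesis enzymes, or 78.9%, beside 37.4% of all 32851 promoter windows of that length. GGGCGG, the Sp1 site, was also in 15 of 19, or 78.9%, beside 35.7% of all windows. The strict sterol element was in 1 of the 30 member windows, that of Hmgcs1, where the letters TCACCCCAC begin 137 bases before the start, and in 1.24% of all windows. The E-box CACGTG, a clock site, was in 6 of 30 member windows, or 20%, beside 7.15% of all windows. These windows belong to 5 of the 24 genes, and the 2 of Scap overlap and share the same site. The REV-ERB and ROR site TAGGTCA was in 2 of 30, beside 2.61% of all windows. Both are overlapping windows of Dhcr7 that share the same site, so it was found in 1 of 24 genes. The 3 windows of Insig2 held neither CACGTG nor TAGGTCA. The Insig2 window shown held 3 CCAAT boxes, and those of its other annotated starts held 0. All motifs were searched on both strands, and none holds another. A letter match is a description of the window and does not show binding.

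No member passed the test between genotypes. By edgeR's quasi-likelihood test, with Benjamini-Hochberg adjustment over 12522 genes and a threshold of 0.05, 0 of 29 members were called higher in KO (background 0.128% of all tested genes) and 0 were called lower (background 0.0878%). At an unadjusted p under 0.05, 2 members were higher, Stard4 and Npc1 (background 8.1%), and 1 was lower, Insig2 (background 7.35%). DESeq2 called 1 member higher, Stard4 (background 1.8%), and 0 lower (background 1.61%), with 2 higher (background 7.41%) and 0 lower (background 6.42%) before adjustment. The 3 KO values lay above all 3 WT values in 1 member, Stard4 (background 10.7%), and below them in 0 (background 10.1%). The median log2 fold change of the 29 members, KO over WT, was 0.02, beside 0.001 over all tested genes. In simulated counts at this design, 20% of 65 genes changed 1.5-fold were called and 59.7% of 72 changed 2-fold, so changes of this size would often be missed. The changed genes were drawn at random from all genes kept and varied independently between libraries, so these shares are not those of the members.

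**Figure D1:**
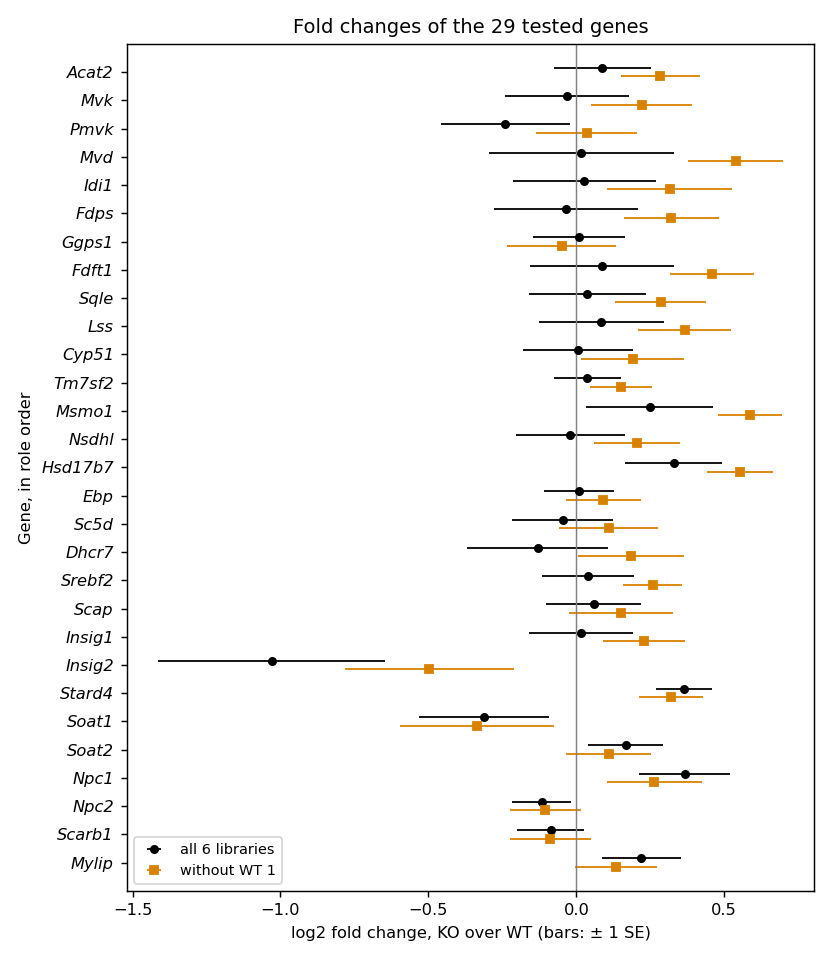
Log2 fold change, KO over WT, of the 29 tested members (horizontal axis), in role order from the first synthesis step at the top, with bars of ± 1 SE. Black points use all 6 libraries and orange squares leave out WT library 1. The enzymes sit around 0 with all libraries, and Msmo1 reaches 0.59 and Hsd17b7 0.55 without WT library 1.

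The synthesis enzymes are given in pathway order, as CPM in KO libraries 1 to 3 and WT libraries 1 to 3. Acat2, the cytosolic thiolase that joins acetyl-CoA units, was at 61.8, 46.9 and 52.6 CPM in KO, against 63.6, 44.1 and 44.2 CPM in WT. Its log2 fold change was 0.09 ± 0.16 (SE, edgeR adjusted p = 0.853), and the groups overlapped.

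Hmgcs1, HMG-CoA synthase of the same route, was listed at 0 counts in all 3 KO and all 3 WT libraries. By counting alone a count of 0 would allow up to 0.173 CPM in the shallowest WT library, where 3 counts are taken as the limit for each library. The genes beside it on chromosome 13 in the RefSeq table were also at 0 in all 6 libraries, namely Ccl28, Nim1k, Zfp131, AF067063 and Tcstv1. On the side of Ccl28 the run ended with that gene. Tmem267, the next gene there, had 79, 54 and 64 counts in KO and 53, 92 and 44 in WT. Farther out, Paip1 had 1438, 1068 and 1279 counts in KO and 988, 1233 and 1068 in WT. The run of 0 counts therefore spans neighbours, Hmgcs1 was not tested, and no level of this enzyme is read from these files. The cause was not tested.

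The mevalonate to isoprenoid steps gave small differences between genotypes. Mvk, mevalonate kinase, was at 38.7, 39.6 and 27.7 CPM in KO, against 47.7, 28.5 and 32.1 CPM in WT. Pmvk, phosphomevalonate kinase, was at 71.5, 51.1 and 48.1 CPM in KO, against 90.5, 54.99 and 56.1 CPM in WT. Pmvk had the largest difference of this step group, a log2 fold change of -0.24 ± 0.22 (SE, edgeR adjusted p = 0.657). For both kinases WT library 1 held the highest value of the 6.

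Mvd, the decarboxylase that makes isopentenyl diphosphate, was at 27.9, 20.5 and 28.3 CPM in KO, against 40.7, 17.3 and 17.95 CPM in WT. All 3 KO values of Mvd lay between WT library 1 and the other 2 WT libraries. Idi1, the isomerase of that product, was at 12.9, 8.24 and 11.5 CPM in KO, against 14.6, 9.40 and 8.08 CPM in WT. Fdps, farnesyl diphosphate synthase, was at 93.1, 75.9 and 63.2 CPM in KO, against 114, 63.8 and 60.1 CPM in WT. Ggps1, which leads away from sterols to the geranylgeranyl group used on proteins, did not share this order, at 7.20, 7.64 and 6.28 CPM in KO, against 6.43, 6.45 and 8.14 CPM in WT. Its highest library was WT library 3.

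The squalene steps had WT library 1 highest in each of 3 enzymes. Fdft1, squalene synthase and the first step committed to sterols, was at 108, 81.3 and 84.9 CPM in KO, against 126, 68.9 and 64.2 CPM in WT. Its log2 fold change was 0.09 ± 0.24 (SE, edgeR adjusted p = 0.907), with the 3 KO values inside the WT range. Sqle, squalene epoxidase, was at 136, 101 and 144 CPM in KO, against 163, 106 and 103 CPM in WT. Lss, lanosterol synthase, was at 83.3, 61.2 and 61.0 CPM in KO, against 87.6, 50.6 and 55.8 CPM in WT. For Lss all 3 KO values were above WT libraries 2 and 3 and below WT library 1.

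The steps after lanosterol held the enzyme with the largest difference. Cyp51, the lanosterol demethylase, was at 312, 223 and 247 CPM in KO, against 322, 199 and 257 CPM in WT. Tm7sf2, a sterol reductase, was at 163, 150.1 and 147 CPM in KO, against 172, 145 and 131 CPM in WT. Msmo1, the C4-methyl oxidase, was at 298, 283 and 276 CPM in KO, against 341, 183 and 198 CPM in WT. The KO libraries were close to each other for Msmo1 while the WT libraries spread widely, at 286 ± 10.96 CPM in KO and 241 ± 87.6 CPM in WT (SD, n = 3 each). Nsdhl, which acts with Msmo1 to take off the C4 methyl groups, was at 177, 146 and 127 CPM in KO, against 196, 126 and 134 CPM in WT.

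Hsd17b7, the ketoreductase of the same complex, was the enzyme with the largest absolute log2 fold change, 0.33 ± 0.16 (SE, edgeR adjusted p = 0.388). It was at 129.9, 110.2 and 123 CPM in KO, against 124, 86.1 and 78.6 CPM in WT, and was 1 of 2 tested enzymes for which WT library 1 was not the highest. Ebp, the sterol isomerase, was at 260.3, 239 and 210.2 CPM in KO, against 262, 234 and 210.2 CPM in WT. Sc5d, which adds the C5 double bond, was at 683, 505 and 497 CPM in KO, against 699, 545 and 496 CPM in WT. Dhcr7, the reductase that makes cholesterol from 7-dehydrocholesterol, was at 162, 121 and 103 CPM in KO, against 196, 113 and 113 CPM in WT. For Ebp and Sc5d the genotypes gave nearly the same 3 values, and for Dhcr7 WT library 1 was the highest of the 6.

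Per kilobase of exon (merged exons of GENCODE M21, an annotation other than the one counted), Sc5d stood at 115 ± 21.6 in KO and 119 ± 21.8 in WT, and Ebp at 102 ± 10.9 and 102 ± 11.3 (CPM per kb, SD, n = 3 each). Idi1 stood at 3.11 ± 0.68 CPM per kb in KO and 3.05 ± 0.99 in WT, and Ggps1 at 1.49 ± 0.15 and 1.48 ± 0.21. Exons of Fdft1 overlap those of Ctsb, of Cyp51 those of Akap9, of Ggps1 those of Arid4b and of Npc1 those of Rmc1 on the opposite strand, and those of Tm7sf2 overlap Vps51 and those of Fdps overlap Gm43738 on the same strand. The labels do not say whether counting used strand, so reads from shared stretches cannot be assigned with certainty.

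Most enzymes were high in WT library 1 and KO library 1, and their order over the other libraries differed. In KO libraries 2 and 3, Sqle was at 101 and 144 CPM and Fdps at 75.9 and 63.2 CPM. WT library 1 held the highest level of 16 of the 18 tested enzymes, or 88.9%, while it was the highest for 19.8% of all tested genes. It was above both other WT libraries in 17 of the 18, against 36.4% of all tested genes. Relative to the mean of the other WT libraries, WT library 1 had a median ratio of 1.57 over the 18 enzymes, with 2.31 for Mvd, 1.89 for Fdft1 and 1.84 for Fdps at the top and 0.882 for Ggps1 at the bottom. Over all tested genes that median ratio was 1.002. KO library 1 followed, at 0.987 of that mean for Ggps1 up to 1.63 times for Fdft1. The summed level of the enzymes was 2826, 2271 and 2258 CPM in KO libraries 1 to 3, and 3067, 2081 and 2068 CPM in WT libraries 1 to 3. WT library 1 and KO library 1 were high, and the other 4 libraries lay between 2068 and 2271 CPM.

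**Figure D2:**
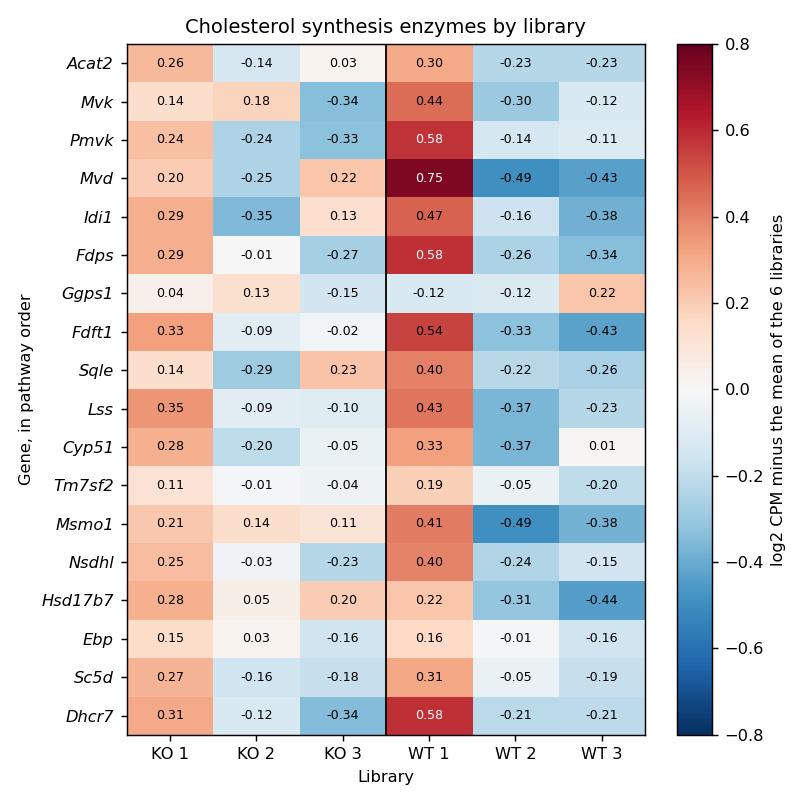
Log2 CPM of the 18 tested synthesis enzymes (rows, in pathway order) in each library (columns, KO left of the line and WT right of it), minus the mean of the gene over the 6 libraries; red is above that mean and blue below. WT library 1 is red in all rows but Ggps1, and KO library 1 is red in every row.

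The WT libraries varied more among themselves than the KO libraries did for these enzymes. In summed level WT libraries 2 and 3 were close, at 2081 and 2068 CPM, and WT library 1 was apart at 3067 CPM. The coefficient of variation had a median of 17.5% in KO and 27.8% in WT over the 18 enzymes, and was larger in WT for 17 of them. Over all tested genes the medians were 12.3% in KO and 9.83% in WT, with the larger value in WT for 4998 of 12522.

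Leaving out WT library 1 moved the enzymes together. The median log2 fold change over the 18 enzymes, KO over WT, was 0.01 with all libraries and 0.25 without WT library 1, and 12 and 17 of the 18 were above 0 (all tested genes, 50.3% and 50.6%). Without that library 5 enzymes were higher at an unadjusted p under 0.05, Msmo1, Hsd17b7, Mvd, Fdft1 and Lss (background 6.09%), 0 members were lower (background 4.83%), and edgeR called 0 of the members. Msmo1, singled out here after its values were seen, then had a log2 fold change of 0.59 ± 0.11 (SE, edgeR adjusted p = 0.150) and Hsd17b7 0.55 ± 0.11 (SE, edgeR adjusted p = 0.182). In 7 of the 18 all KO values lay above WT libraries 2 and 3 (background 14.3%). Leaving out KO library 1 instead gave a median of -0.07, leaving out WT library 2 -0.07 and leaving out WT library 3 -0.08. With the clock score as a covariate the median was 0.43, with 17 of 18 above 0 and 9 enzymes higher at an unadjusted p under 0.05 (background 3.94%), 0 members lower (background 3.36%) and 0 called by edgeR. Without both WT library 1 and KO library 2 the median was 0.31, with 8 enzymes higher (background 5.48%), 0 members lower (background 4.35%) and 0 called. WT library 1 was above both other WT libraries in 17 of the 18, so leaving it out raises their fold changes by construction. That library also had by far the lowest clock score, and all KO scores lay above the WT scores. The fit with the score as a covariate therefore cannot separate genotype from the score or from WT library 1. Most enzymes also shared their high libraries, so these counts beside a background are descriptions only. The sign of the enzymes between genotypes thus changed with the library left out.

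Of the control genes, Srebf2 and Insig1 were highest in WT library 1 and next highest in KO library 1, as was the summed level of the enzymes. Insig2 had the largest difference. Srebf2, the gene of SREBP-2, was at 67.8, 62.7 and 65.3 CPM in KO, against 81.4, 55.6 and 53.3 CPM in WT. The KO values of Srebf2 lay close together, between WT library 1 and the other WT libraries, with a log2 fold change of 0.04 ± 0.16 (SE, edgeR adjusted p = 0.936). Scap was at 224, 188 and 143 CPM in KO, against 199, 171 and 162 CPM in WT, and its KO values spread on both sides of the WT values. Insig1, itself an SREBP target that closes the feedback, was at 291, 217 and 245 CPM in KO, against 316, 216 and 212 CPM in WT. For Insig1 the highest library was again WT library 1 and the groups overlapped (log2 fold change 0.02 ± 0.17, SE, edgeR adjusted p = 0.979).

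Insig2, the second sterol-dependent anchor of SCAP, had the largest absolute log2 fold change of the 29 members. It was at 167, 148 and 85.1 CPM in KO, against 441, 230.2 and 146 CPM in WT. The KO values were low and WT library 1 was far above the rest, but WT library 3 lay just below KO libraries 1 and 2, so the groups overlapped. The log2 fold change was -1.03 ± 0.38 (SE, edgeR adjusted p = 0.252). Without WT library 1 it was -0.50 ± 0.28 (SE, edgeR adjusted p = 0.603), and with the clock score as a covariate -0.10 ± 0.31 (SE, edgeR adjusted p = 0.981). Insig2 was highest in the library with the lowest clock score and next highest in the library with the next lowest. The other libraries did not keep this order: KO library 2, at the highest score of 3.84, had 148 CPM. WT library 3, at 2.93, had 146 CPM. Nr1d1, the gene of REV-ERB alpha, was at 262, 151 and 62.1 CPM in KO, against 97.5, 138 and 168 CPM in WT. It was lowest in KO library 3, where Insig2 was also lowest. Any link between these genes was not tested. The ratio of WT library 1 to the mean of the other WT libraries was 2.34 for Insig2, beside 1.48 for Insig1.

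**Figure D3:**
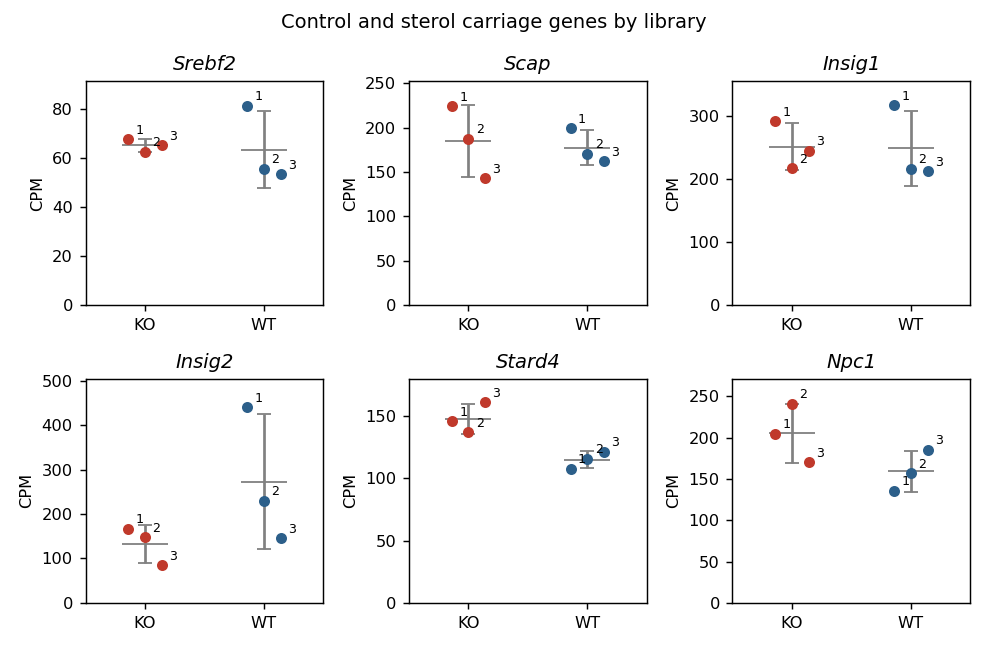
CPM of 4 control genes and 2 carriage genes in each library (points, numbered by library), with the mean and SD of each genotype in grey; KO is left and WT right. Insig2 is at 441 CPM in WT library 1 and 85.1 to 230.2 CPM elsewhere, and among these 6 genes only Stard4 has all KO values above all WT values.

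**Figure D4:**
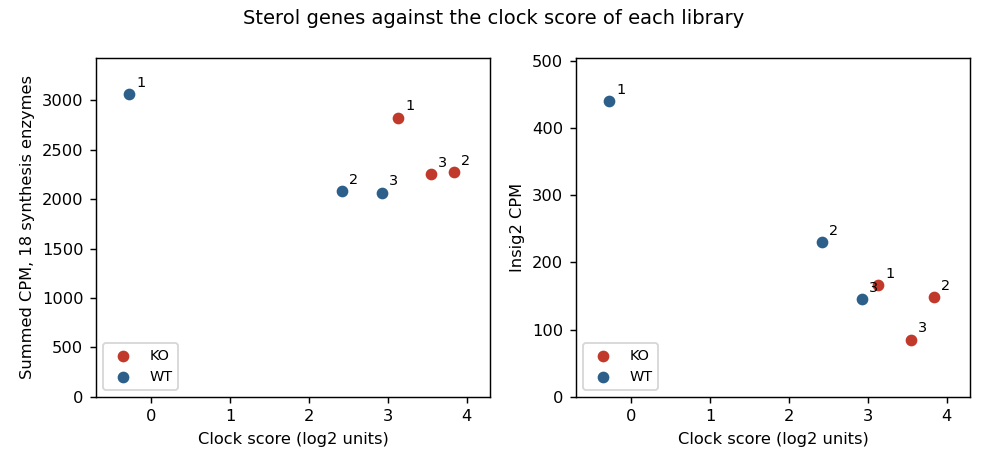
Summed CPM of the synthesis enzymes (left) and Insig2 CPM (right) against the clock score of each library, in log2 units; numbers give the library within its genotype. WT library 1 lies alone at a score of -0.28 with 3067 CPM of enzymes and 441 CPM of Insig2, while KO library 1 has 2826 CPM of enzymes at a score of 3.13.

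KO library 1, with 2826 CPM of enzymes, had a clock score of 3.13 and 167 CPM of Insig2. WT library 1, with 3067 CPM of enzymes, had a score of -0.28 and 441 CPM of Insig2. What WT library 1 and KO library 1 share was not tested.

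Carriage genes held the member with the smallest p. Stard4, which carries cholesterol between membranes and is an SREBP-2 target, was at 146, 137 and 161 CPM in KO, against 108, 116 and 121 CPM in WT. All 3 KO values were above all 3 WT values, at 148 ± 12.1 CPM in KO and 115 ± 6.77 CPM in WT (SD, n = 3 each). The log2 fold change was 0.36 ± 0.09 (SE). It missed the threshold with edgeR, where the adjusted p was 0.138, and passed it with DESeq2, where the adjusted p was 0.0481. Over all alternatives its adjusted p ran from 0.0481 to 0.703 and its log2 fold change from 0.29 to 0.42. Unlike the enzymes, Stard4 was lowest in WT library 1.

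Npc1, the membrane protein that exports cholesterol from lysosomes, was at 205, 241 and 170.3 CPM in KO, against 136, 157 and 185 CPM in WT. KO library 3 lay below WT library 3, so the groups overlapped, and the log2 fold change was 0.37 ± 0.15 (SE, edgeR adjusted p = 0.304). Its soluble partner Npc2 was at 82.9, 67.5 and 81.6 CPM in KO, against 85.4, 86.2 and 80.0 CPM in WT, with a log2 fold change of -0.12 ± 0.10 (SE, edgeR adjusted p = 0.629). Npc1l1, the sterol uptake channel of the intestine, had 1, 2 and 0 counts in KO and 0, 0 and 1 in WT, too few for a test.

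Of the esterifying enzymes, Soat2, the hepatocyte form, was at 67.9, 56.3 and 49.3 CPM in KO, against 47.3, 54.5 and 52.8 CPM in WT. Soat1, the form of macrophages and most other cells, was at 3.55, 2.89 and 5.06 CPM in KO, against 4.62, 4.58 and 5.14 CPM in WT. Soat1 had a log2 fold change of -0.31 ± 0.22 (SE, edgeR adjusted p = 0.547) and KO library 3 lay within the WT range. Kupffer cell markers stood lower beside it, with 10 of 10 below 0 and a median log2 fold change of -0.71. Of these, 0 were called by edgeR, 10 were lower at an unadjusted p under 0.05 (background 7.35%) and 8 were called lower by DESeq2 (background 1.61%). Their summed level was 423, 353 and 556 CPM in KO, against 757, 725 and 673 CPM in WT, and KO library 3 was the highest KO library for both. The lowest p were those of C1qb, at 39.8 ± 5.67 CPM in KO and 67.0 ± 7.74 CPM in WT, and C1qc, at 32.9 ± 5.62 CPM in KO and 54.7 ± 6.11 CPM in WT (SD, n = 3 each, edgeR adjusted p = 0.062 and 0.0801). Endothelial markers summed to 426, 462 and 518 CPM in KO and 455, 469 and 470.0 CPM in WT, and edgeR called 0 of 8 endothelial, 0 of 8 stellate and 0 of 5 tested cholangiocyte markers. In bulk tissue fewer cells and less RNA per cell cannot be told apart, and the part of these cells in the Soat1 values was not tested.

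For uptake, Scarb1, the HDL receptor, was at 229.5, 249 and 195 CPM in KO, against 238, 257 and 220.0 CPM in WT. Mylip, the LXR-induced ubiquitin ligase that degrades lipoprotein receptors, was at 18.8, 17.0 and 22.2 CPM in KO, against 14.6, 17.6 and 17.7 CPM in WT. Both overlapped between genotypes, with log2 fold changes of -0.09 ± 0.11 and 0.22 ± 0.13 (SE, edgeR adjusted p = 0.773 and 0.481). Over the 7 tested carriage, esterification and uptake genes the ratio of WT library 1 to the mean of the other WT libraries ran from 0.793 for Npc1 to 1.03 for Npc2, below that of all enzymes except Ggps1.

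Other lists of sterol genes also held no gene called by edgeR. Of 15 genes of SREBP processing and sterol sensing 0 were called, 0 passed an unadjusted p under 0.05 and DESeq2 called 0. The lowest p were those of Fbxw7, a ligase subunit that degrades nuclear SREBP, at 9.63 ± 1.29 CPM in KO and 11.1 ± 0.79 CPM in WT, and of Rnf145, a ligase of the endoplasmic reticulum, at 37.5 ± 11.3 CPM in KO and 30.03 ± 5.99 CPM in WT (SD, n = 3 each). Their median log2 fold change was 0.02.

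Of 13 tested genes on the branches of the mevalonate route edgeR called 0. Before adjustment 2 were higher and 1 lower (p under 0.05, backgrounds 8.1% and 7.35%). DESeq2 also called 0. Rabggta, a subunit of the enzyme that puts geranylgeranyl groups on Rab proteins, was at 42.0, 41.8 and 40.3 CPM in KO, against 34.3, 32.9 and 31.5 CPM in WT (log2 fold change 0.33 ± 0.09, SE, edgeR adjusted p = 0.139). Its partner Rabggtb was at 60.5, 45.7 and 49.6 CPM in KO, against 42.3, 42.0 and 42.8 CPM in WT (0.29 ± 0.11, SE, edgeR adjusted p = 0.272). For both subunits all KO values were above all WT values. This held for 3 genes of the list, with Pggt1b (background 10.7%). All KO values were below all WT values in 3 others, Pdss1, Pdss2 and Coq2 (background 10.1%).

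Of 12 LXR receptors and targets, genes induced when sterol is in excess, edgeR called 0. Before adjustment 1 was higher and 1 lower (p under 0.05, backgrounds 8.1% and 7.35%). The DESeq2 calls were 1 lower (background 1.61%) and 0 higher (background 1.8%). Abcg1, a sterol exporter prominent in macrophages, was at 6.96, 5.95 and 6.82 CPM in KO, against 10.6, 10.4 and 9.70 CPM in WT. All its KO values were below all WT values, with a log2 fold change of -0.64 ± 0.13 (SE, edgeR adjusted p = 0.083). Abcg5, a subunit of the transporter that sends sterol into bile, was at 152, 175 and 127 CPM in KO, against 98.9, 119 and 114 CPM in WT (0.45 ± 0.13, SE, edgeR adjusted p = 0.164). Abcg1 thus stood lower and Abcg5 higher in KO, and the part of the lower Kupffer cell markers in the Abcg1 values was not tested.

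The list for sterol removal to bile acids and oxysterols had the highest median of the sterol lists, 0.32 over 11 tested genes. In it 0 were called by edgeR, 6 were higher and 1 lower before adjustment (p under 0.05, backgrounds 8.1% and 7.35%) and 2 were called higher by DESeq2 (background 1.8%). Cyp39a1, an oxysterol hydroxylase, was at 51.4, 41.3 and 56.7 CPM in KO, against 14.5, 27.3 and 25.3 CPM in WT, a log2 fold change of 1.15 ± 0.23 (SE, edgeR adjusted p = 0.0801). Ces1d, a carboxylesterase, was at 669, 615 and 717 CPM in KO, against 504, 502 and 463 CPM in WT (0.44 ± 0.10, SE, edgeR adjusted p = 0.114). Both had all KO values above all WT values.

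Of 18 genes of sterol carriage and lysosomal release edgeR called 0, 0 passed an unadjusted p under 0.05 and DESeq2 called 0. Stard5, a soluble carrier related to Stard4, was at 184, 233 and 183 CPM in KO, against 154, 162 and 181 CPM in WT (0.27 ± 0.12, SE, edgeR adjusted p = 0.331). Osbpl2, a lipid transfer protein, had 0.22 ± 0.11 (SE, edgeR adjusted p = 0.386). Of 15 genes of fatty acid synthesis, the SREBP-1 side of the system, edgeR called 0 and DESeq2 called 0. Before adjustment 1 was higher (p under 0.05, background 8.1%). Mlxipl, the carbohydrate-sensing factor ChREBP, was at 381 ± 11.2 CPM in KO and 274 ± 55.3 CPM in WT, and the desaturase Fads2 at 549 ± 175 CPM in KO and 401 ± 60.8 CPM in WT (SD, n = 3 each). The groups overlapped for Fads2 and did not for Mlxipl. Their summed level was 4928, 3788 and 5684 CPM in KO, against 4265, 4600 and 4115 CPM in WT, so KO library 3 was highest and WT library 1 did not stand out. The library highest for cholesterol synthesis was not the one highest for fatty acid synthesis.

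Of 12 genes of the fasting response edgeR called 0. Before adjustment 1 was higher, Cpt1a, and 1 lower, G6pc (p under 0.05, backgrounds 8.1% and 7.35%). These were also the DESeq2 calls (backgrounds 1.8% and 1.61%). Cpt1a, which brings fatty acids into mitochondria, was at 745, 801 and 679 CPM in KO, against 478, 599 and 520.1 CPM in WT, and G6pc, the last step of glucose release, was at 267, 257 and 324 CPM in KO, against 342, 425 and 419 CPM in WT. These 2 genes, whose transcripts both respond to fasting, stood on opposite sides, and neither passed the edgeR threshold (adjusted p = 0.134 and 0.144).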

How the data were processed

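The deposited files hold whole-number read counts per gene symbol, 1 per library, not normalized. TopHat2 2.0.8b, CASAVA 1.8.2 and HTSeq, and the mouse build mm9 beside a human one, appear in the submitters' processing notes without their roles. The annotation and the strand setting of the counting are not known here. Reads placed at several positions are not in the gene counts, and the 5 rows naming no gene were left out: reads outside genes were 9.65% to 12.5% of uniquely placed reads and ambiguous ones 0.594% to 0.662%. The row for placements that were not unique was larger than the gene counts in every library. It held 1.64 to 2.65 entries per gene count in KO and 1.49 to 2.13 in WT, with the most in KO library 2.

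The test between genotypes used edgeR 4.0.16 (R 4.3.3): filterByExpr (minimum count 10), TMM scaling, a quasi-likelihood fit with genotype as the only term, and Benjamini-Hochberg adjustment over 12522 genes. SEs derive from the F statistic. log2 CPM used a prior count of 2. Alternatives used DESeq2 1.42.0, limma 3.58.1, other scalings and filters, left-out libraries, the replicate number as a block and the clock score. Simulated counts with known changes (12415 genes kept) served to check the test.

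The members and lists were chosen with earlier results of these data known. Values of each library are given for all members. Of each other list the genes with the lowest p were named where none passed, and named as not past the threshold. Counts limit precision, and the limit for a count of 0 covers counting error only.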

Additional observations from a re-analysis of the deposited data

How the results depend on the processing

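Under the 18 alternatives run per gene, 0 members were called lower, and 1 was called higher by DESeq2 (Stard4) and 0 by every other. Calls over all genes numbered 27 as reported, 133 without a filter, 427 with DESeq2, 68 with robust estimation, 1 with the replicate block, 1 with the clock score, 1 without WT library 1 and KO library 2 together, 1 at an adjusted p under 0.01, and 3 to 36 with 1 library left out. The synthesis enzymes above 0 numbered 12 of 18, 5 with upper-quartile scaling, 5 with total counts, and 2 (without KO library 1) to 17 (without WT library 1) with 1 library left out. Upper-quartile scaling moved the median of all genes to -0.04 and that of the enzymes to -0.03. The median of the enzymes was 0.01, and 0.43 with the clock score. None of the members was called, so their signs are descriptions: 20 of 29 changed sign in at least 1 alternative, and 9 kept it in all, among them Msmo1, Hsd17b7, Insig2, Stard4 and Npc1. Insig2 ran from -1.33 to -0.10. The lowest adjusted p of a member with 1 library left out was 0.132. Deviations of same-numbered libraries correlated at -0.08, -0.10 and -0.04 across genes, and those of differently numbered ones at -0.05 to 0.12. These correlations do not settle whether replicate numbers pair the samples. The replicate block called 0 members. With 3 libraries a genotype, fold changes near 1.5 are often below what this test can call.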
